A study of Mus musculus with 4 samples.

Results

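The nuclear receptors are a superfamily of transcription factors, and 46 of their genes were followed here in the subcutaneous adipose tissue (SAT) of mice. The members were chosen by name as a list of the superfamily, and 44 of the 46 had a level on the arrays, among 19938 genes with a level in all. The other 2, *Nr1h2* and *Nr2e3*, had no probe set that named them alone and had no value here. RNA was hybridized to 4 Affymetrix MoGene 1.0 ST arrays, 1 for each of the groups cKO-CT, cKO-HFD, WT-HFD and WT-CT. All mice were C57Bl6 males of 16 weeks of age, and all carried lox-flanked *Napepld* alleles, the gene of an enzyme that makes N-acylethanolamines. The cKO mice also carried AP2 Cre, a recombinase driven by the *Fabp4* promoter, and the WT littermates had no Cre. This Cre is meant to act in adipocytes, so that the other cells of the tissue keep the gene, though its promoter has been described as active in other cells too. The study found *Napepld* expression decreased in the adipocyte fraction and not in the stromal vascular fraction. Peritoneal macrophages did not differ in it between the genotypes. Mice were fed a control diet (CT, AIN93M) or a high-fat diet (HFD, D12492) for 8 weeks. Before labelling, the RNA of a group was pooled, from 5 mice by the study's methods and from 4 to 5 chosen for RNA quality by the labels. An array is therefore 1 sample of its group, differences between groups have no replicate check on the arrays, and no test or p-value is given.

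Most nuclear receptors are switched by a small lipophilic ligand, such as a steroid, thyroid hormone, a retinoid or a fatty acid. They bind DNA, many of them as partners of a retinoid X receptor, and recruit coactivators when a ligand is bound or corepressors when it is not. In adipose tissue PPARγ drives the formation of adipocytes, PPARα and the estrogen-related receptors act on genes of fatty acid oxidation and mitochondria, and the receptors for glucocorticoids, estrogens and thyroid hormone carry systemic signals into the tissue. Orphan receptors have no settled natural ligand, and REV-ERBs and RORs are parts of the circadian clock.

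Levels are the authors' log2 values made by RMA, and a call of higher or lower needs a difference of at least 1.5-fold between 2 arrays, or 0.58 on the log2 scale. Olfactory receptor (*Olfr*) genes, used mainly by neurons of the nose, gave a background. The 95th percentile of 1027 *Olfr* genes lay at 5.28 on cKO-CT, 5.50 on cKO-HFD, 5.42 on WT-HFD and 5.39 on WT-CT. The targeted gene *Napepld* had levels of 7.78 on cKO-CT, 7.94 on cKO-HFD, 8.01 on WT-HFD and 8.31 on WT-CT, and differed by less than 1.5-fold in both genotype comparisons (after cyclic loess, another way to scale the arrays, it was at -0.62 in cKO-CT versus WT-CT, past that size). Whether its probe set falls inside the floxed stretch was not known. The study reported no detectable NAPE-PLD protein in the white adipose tissue of cKO mice. By quantitative PCR it found less *Napepld* mRNA in their adipose depots, with a residual expression. All 10 measured white adipocyte markers were above the *Olfr* background on every array. The arrays also differed in markers of other tissues. The 24 skeletal muscle markers had a median level of 9.04 on cKO-CT, 6.84 on cKO-HFD, 10.88 on WT-HFD and 9.10 on WT-CT (summed on the linear scale, 20737, 4968, 63058 and 20872 on these arrays, with at least 22 of 24 above background on each), and 6 of 17 measured pancreatic acinar markers were above background on cKO-CT, 6 on cKO-HFD, 7 on WT-HFD and 13 on WT-CT. In such bulk samples fewer cells of a type and less RNA per cell cannot be told apart.

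Of the 44 measured receptors, 28 were above the *Olfr* background on all 4 arrays, 2 on some arrays (*Nr5a1* and *Nr5a2*) and 14 on none. By array, 65.9% of them exceeded it on cKO-CT (60.1% of all genes), 68.2% on cKO-HFD (57.1%), 63.6% on WT-HFD (58.3%) and 65.9% on WT-CT (59.4%). The 14 receptors on no array were *Rorb*, *Nr1h4* (the bile acid receptor FXR), *Vdr* (the vitamin D receptor), the xenobiotic receptors *Nr1i2* and *Nr1i3*, *Hnf4g*, *Nr2e1*, *Nr2f1*, *Esr2*, *Esrrb*, *Pgr* (the progesterone receptor), *Nr4a3*, *Nr0b1* and *Nr0b2*. Their levels lay between 3.56 (*Hnf4g* on cKO-CT) and 5.27 (*Vdr* on cKO-HFD). Ratios of genes at this level are close to the noise of the array and were not resolved. The thyroid hormone, retinoic acid, PPAR and RXR families were above background with every member, and the receptors *Nr0b1* and *Nr0b2*, which lack a DNA-binding domain, with none.

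**Figure D1:**
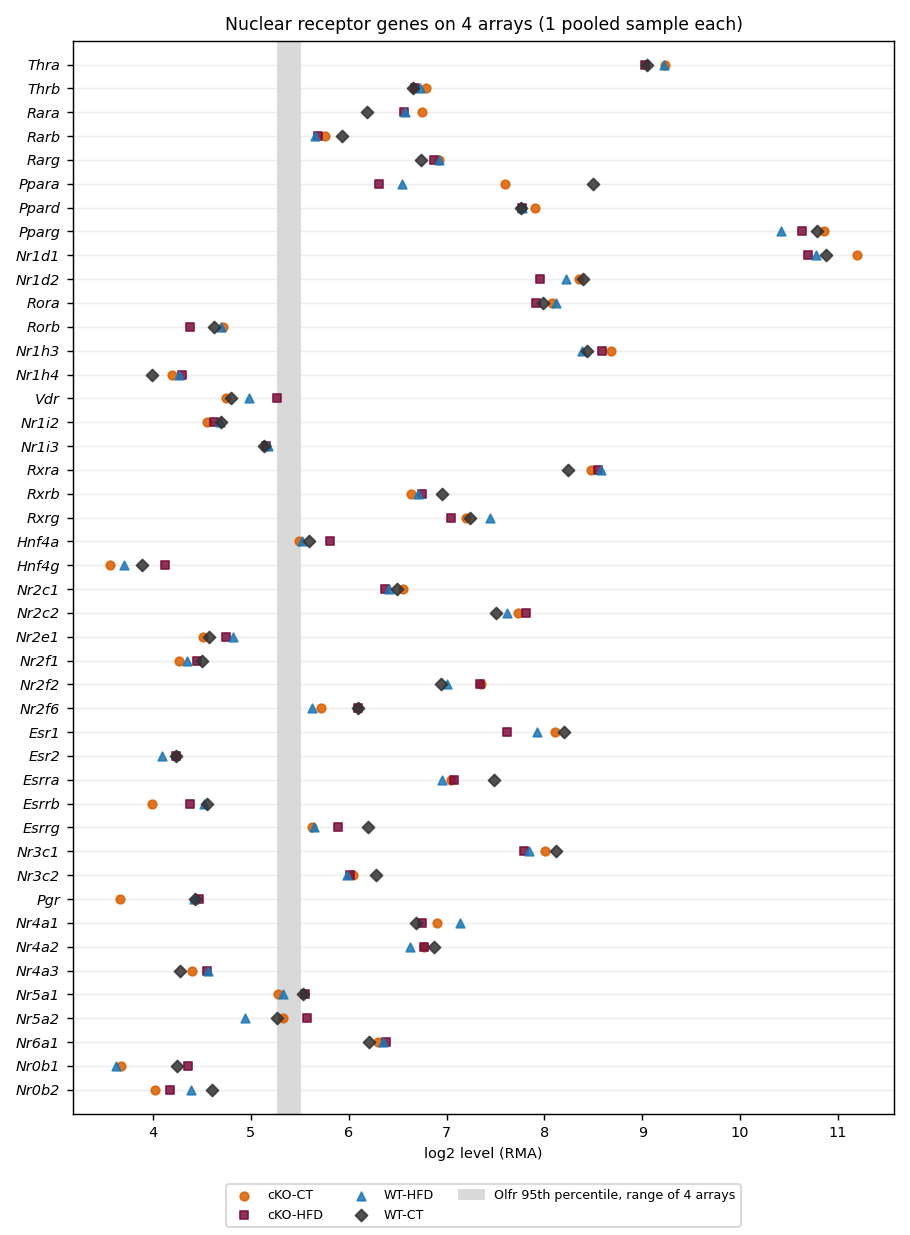
Log2 level (RMA) of the 44 measured nuclear receptor genes, with 1 point for each of the cKO-CT, cKO-HFD, WT-HFD and WT-CT arrays and the range of the *Olfr* 95th percentile over the 4 arrays in grey. In most rows the 4 points lie close together, while those of *Ppara* spread between 6.31 on cKO-HFD and 8.50 on WT-CT.

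Few receptors differed by 1.5-fold between genotypes or diets, and of those above background *Ppara* had the largest of these ratios. In cKO-CT versus WT-CT 0 receptors were higher and 2 lower (*Ppara* and *Pgr*, 4.55%) of 44, where 1.64% of all genes were higher and 1.52% lower. In cKO-HFD versus WT-HFD 2 were higher (*Nr5a2* and *Nr0b1*, 4.55%) and 0 lower, against 1.04% and 2.11% of all genes. In WT-HFD versus WT-CT 0 were higher and 2 lower (*Ppara* and *Nr0b1*, 4.55%), against 3.16% and 2.67%, and in cKO-HFD versus cKO-CT 2 were higher (*Pgr* and *Nr0b1*, 4.55%) and 1 lower (*Ppara*, 2.27%), against 1.82% and 2.17%. *Pgr* had 3.67 on cKO-CT, 4.47 on cKO-HFD, 4.41 on WT-HFD and 4.43 on WT-CT, and *Nr0b1*, a repressor of steroid hormone synthesis, had 3.67 on cKO-CT, 4.36 on cKO-HFD, 3.62 on WT-HFD and 4.25 on WT-CT. Both were below the *Olfr* background on every array, so that *Ppara* was the only call among the 28 receptors above it, lower in 3 of the 4 comparisons. Over genes above background on all arrays 2.4% were higher and 0.753% lower in cKO-CT versus WT-CT, 0.688% and 2.33% in cKO-HFD versus WT-HFD, 4.1% and 3.31% in WT-HFD versus WT-CT, and 0.964% and 2.7% in cKO-HFD versus cKO-CT. Both ratios to WT-CT share that array, and each diet comparison shares an array with each genotype comparison.

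The median log2 ratio of the 28 receptors above background was 0.07 in cKO-CT versus WT-CT, -0.00 in cKO-HFD versus WT-HFD, -0.08 in WT-HFD versus WT-CT and -0.11 in cKO-HFD versus cKO-CT. Over the 10895 genes above background it was 0.06, 0.02, 0.02 and -0.05 in the same order. Their median absolute log2 ratio was 0.18, 0.17, 0.22 and 0.15, beside 0.16, 0.13, 0.16 and 0.16 over those genes. Of the 28, 13, 14, 16 and 20 had a ratio below 0. *Rara* (0.57 in cKO-CT versus WT-CT) and *Esrrg* (-0.57 in the same comparison) were just outside the size of a call. *Nr0b1* (-0.63 in WT-HFD versus WT-CT) and *Nr5a2* (0.64 in cKO-HFD versus WT-HFD) were just inside.

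**Figure D2:**
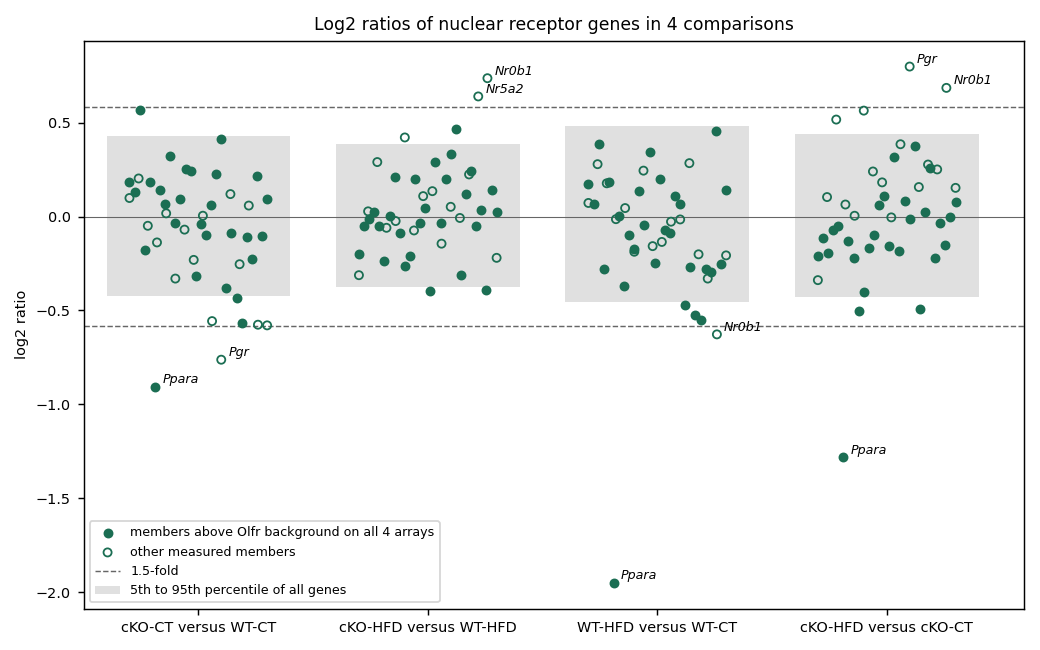
Log2 ratios of the 44 measured receptors in the 4 comparisons (filled, the 28 above the *Olfr* background on all arrays; open, the others), with 1.5-fold as dashed lines and the 5th to 95th percentile of all genes in grey. *Ppara* is at -0.91 in cKO-CT versus WT-CT, -1.95 in WT-HFD versus WT-CT and -1.28 in cKO-HFD versus cKO-CT, below every other receptor in these 3 columns.

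The PPARs are receptors for fatty acids and their derivatives that bind DNA with an RXR. *Ppara*, whose product drives fatty acid oxidation, had a level of 7.59 on cKO-CT, 6.31 on cKO-HFD, 6.55 on WT-HFD and 8.50 on WT-CT. It was highest on WT-CT, intermediate on cKO-CT and low on both HFD arrays. These levels made it 1.87-fold lower in cKO-CT than in WT-CT, 3.87-fold lower in WT-HFD than in WT-CT and 2.43-fold lower in cKO-HFD than in cKO-CT, whereas cKO-HFD and WT-HFD differed by -0.24 on the log2 scale. Counted from the lowest ratio of all 19938 genes, it stood at place 52 in cKO-CT versus WT-CT, 2307 in cKO-HFD versus WT-HFD, 29 in WT-HFD versus WT-CT and 71 in cKO-HFD versus cKO-CT. *Pparg*, the receptor on which adipocyte formation rests, had 10.85 on cKO-CT, 10.63 on cKO-HFD, 10.42 on WT-HFD and 10.79 on WT-CT, with its largest ratio, -0.37, in WT-HFD versus WT-CT. *Ppard*, a more widely used member with roles in oxidative metabolism, had 7.90 on cKO-CT, 7.77 on cKO-HFD, 7.77 on WT-HFD and 7.76 on WT-CT. Both stayed within 1.5-fold throughout.

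The promoter windows of the receptor that moved and of its adipogenic relative are shown for comparison, as given by RefSeq on GRCm38.p6 from 250 bases before to 50 after the start, on the strand of the gene. Capitals mark AGGTCA, the hexamer that many nuclear receptors recognise, searched on both strands. The window of *Ppara* (chr15:85735526-85735825, plus strand, 74.7% G or C) held none, and those of *Pparg* at its first (chr6:115360894-115361193, plus strand) and second listed start (chr6:115362099-115362398, plus strand) held 1 each. The window at the third listed start of *Pparg* (chr6:115421816-115422115, plus strand, 40.3% G or C) held none and is not printed. These letters are a description and not a site.
Ppara: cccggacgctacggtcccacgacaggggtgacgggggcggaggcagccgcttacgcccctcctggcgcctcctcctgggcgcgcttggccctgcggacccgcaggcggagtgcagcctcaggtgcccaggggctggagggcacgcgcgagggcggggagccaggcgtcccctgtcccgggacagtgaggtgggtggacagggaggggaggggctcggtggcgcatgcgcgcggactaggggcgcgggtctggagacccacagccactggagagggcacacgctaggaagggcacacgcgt
Pparg, first start: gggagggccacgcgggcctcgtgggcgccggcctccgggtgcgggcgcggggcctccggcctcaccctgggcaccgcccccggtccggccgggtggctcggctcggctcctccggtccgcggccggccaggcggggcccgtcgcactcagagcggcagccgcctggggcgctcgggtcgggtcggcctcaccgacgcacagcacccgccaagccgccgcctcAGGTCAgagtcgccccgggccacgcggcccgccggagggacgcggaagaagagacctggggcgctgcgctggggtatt
Pparg, second start: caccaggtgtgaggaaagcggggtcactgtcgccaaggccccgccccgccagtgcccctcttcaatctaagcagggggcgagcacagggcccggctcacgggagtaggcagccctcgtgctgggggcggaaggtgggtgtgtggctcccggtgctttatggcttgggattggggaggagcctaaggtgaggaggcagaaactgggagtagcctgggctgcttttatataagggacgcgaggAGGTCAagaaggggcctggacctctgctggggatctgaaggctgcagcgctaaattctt

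A promoter window was listed for 42 of the 46 receptors, 63 windows in all, and AGGTCA occurred in 12 of them (19.0%), against 16.3% of all 32851 windows. The 11 receptors with such a window were *Nr0b1*, *Nr1d2*, *Nr1h4*, *Nr5a2*, *Nr6a1*, *Pparg*, *Rara*, *Rarg*, *Rxra*, *Rxrg* and *Thrb*. The direct repeat of AGGTCA with 1 base of any kind between the copies, which PPAR and RXR pairs bind, was in 0 of the 63 windows and in 0.0396% of all. The E-box CACGTG of the clock factors was in 9.52% of the receptors' windows against 7.15% of all, and the GC box GGGCGG in 44.4% against 35.7%. No match says only that these letters are not in this window.

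Of 23 measured PPAR target genes, 1 was higher and 3 lower in cKO-CT versus WT-CT, 0 and 1 in cKO-HFD versus WT-HFD, 2 and 9 in WT-HFD versus WT-CT, and 0 and 6 in cKO-HFD versus cKO-CT, with median log2 ratios of 0.00, 0.11, -0.08 and 0.02 in these comparisons. Medians of the other lists are given in the same order. The PPAR targets did not move as a block. *Ucp1*, the uncoupling protein of brown fat, and *Cidea*, a lipid droplet protein, which are also on the list of brown and beige markers, had the largest ratios of the list in both diet comparisons, at -4.42 and -3.41 in WT-HFD versus WT-CT and -3.23 and -2.64 in cKO-HFD versus cKO-CT. In cKO-CT versus WT-CT they were at -1.56 and -0.76. *Ehhadh*, an enzyme of peroxisomal fatty acid oxidation, had 8.85 on cKO-CT, 7.88 on cKO-HFD, 7.87 on WT-HFD and 9.07 on WT-CT, and thus was low on both HFD arrays with ratios of -1.20 in WT mice and -0.97 in cKO mice. *Pdk4*, a kinase that spares glucose, was lower under HFD in both genotypes (-0.88 in WT mice and -0.72 in cKO mice), and *Acadl* (-1.04) and the lipid droplet gene *Plin5* (-0.98) in WT mice. *Cpt1a*, which admits fatty acids to mitochondria, was the opposite case with 8.94 on cKO-CT, 9.18 on cKO-HFD, 8.99 on WT-HFD and 8.29 on WT-CT, higher in cKO-CT versus WT-CT (0.65, and 0.56 after cyclic loess, which is under 1.5-fold) and in WT-HFD versus WT-CT (0.69). The adipocyte genes *Fabp4*, *Cd36*, *Lpl*, *Plin1* and *Adipoq* stayed within 1.5-fold in all 4 comparisons, the last of them with 12.66 on cKO-CT, 12.70 on cKO-HFD, 12.59 on WT-HFD and 12.44 on WT-CT.

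Of the brown and beige adipocyte markers, some of them PPAR targets, a part was low on the arrays where *Ppara* was. Their median level over 11 measured markers was 7.88 on cKO-CT, 6.90 on cKO-HFD, 6.97 on WT-HFD and 8.89 on WT-CT, with 9, 8, 8 and 9 of the 11 above background. Summed on the linear scale, the list came to 7022 on cKO-CT, 2703 on cKO-HFD, 3538 on WT-HFD and 12741 on WT-CT, and *Dio2* was below background on every array. The list had 6 lower in cKO-CT versus WT-CT, 1 higher and 1 lower in cKO-HFD versus WT-HFD, 7 lower in WT-HFD versus WT-CT and 6 lower in cKO-HFD versus cKO-CT. Others were not lower, such as *Prdm16*, at 0.37 in cKO-CT versus WT-CT and 0.07 in WT-HFD versus WT-CT, and *Elovl3* was the marker higher in cKO-HFD versus WT-HFD (0.93, both levels below background). The marker lower there was *Cox7a1* (-1.53), and all 24 muscle markers were lower in that comparison too. *Fabp3*, a fatty acid carrier of muscle and brown fat on the PPAR list, was lower in all 4 comparisons, at -1.70 in cKO-HFD versus WT-HFD, where muscle markers differed most. The part of the brown and beige markers in the ratios of *Ppara* was not tested, nor was that of muscle in the ratios of *Cox7a1* and *Fabp3*.

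**Figure D3:**
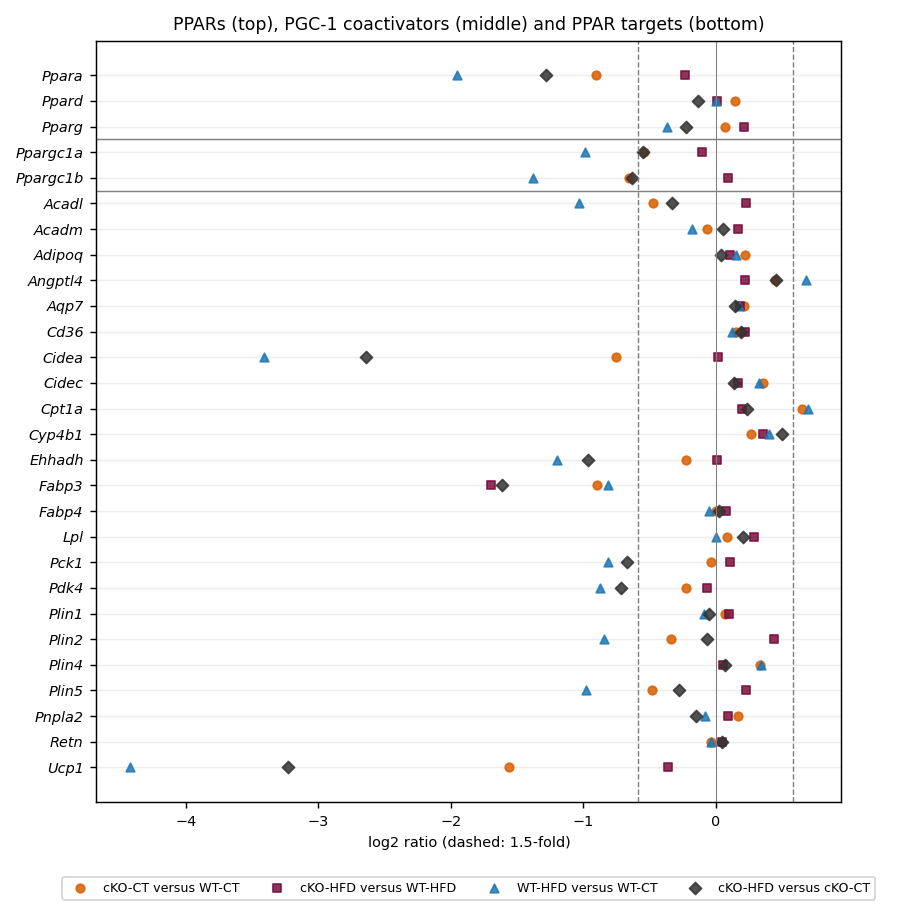
Log2 ratios of the 3 PPAR genes, the coactivators *Ppargc1a* and *Ppargc1b* and the 23 measured PPAR target genes in the 4 comparisons, with dashed lines at 1.5-fold. Within the rows of *Ppara*, *Ppargc1a* and *Ppargc1b*, the point furthest to the left is WT-HFD versus WT-CT (-1.95, -0.99 and -1.38). Their points for cKO-HFD versus WT-HFD are near 0 (-0.24, -0.10 and 0.09). The targets *Ucp1* (-4.42) and *Cidea* (-3.41) lie further to the left in WT-HFD versus WT-CT.

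Among the proteins that nuclear receptors recruit, calls were few and fell on *Ppargc1b* and *Ppargc1a*. *Ppargc1b*, a coactivator of the PPARs and of the estrogen-related receptors, had 7.12 on cKO-CT, 6.49 on cKO-HFD, 6.40 on WT-HFD and 7.78 on WT-CT, the same order of arrays as its relative *Ppargc1a* except between the HFD arrays. It was lower in cKO-CT versus WT-CT (-0.65), in WT-HFD versus WT-CT (-1.38) and in cKO-HFD versus cKO-CT (-0.63). These were the only calls among 17 coactivators in the first and the last of these comparisons, and *Ppargc1a* (-0.99) the only other in WT-HFD versus WT-CT, where *Lpin1* (-0.55) joined them after cyclic loess (-0.60). *Ppargc1a* was just under the size of a call at -0.54 in cKO-CT versus WT-CT and -0.55 in cKO-HFD versus cKO-CT. The study reported it lower in cKO-CT mice, by microarray and by quantitative PCR. *Pprc1*, the other member of the family of *Ppargc1a* and *Ppargc1b*, was called in no comparison. In cKO-HFD versus WT-HFD 0 coactivators were called. The list medians were 0.16 in cKO-CT versus WT-CT, -0.08 in cKO-HFD versus WT-HFD, 0.06 in WT-HFD versus WT-CT and -0.14 in cKO-HFD versus cKO-CT. Of 10 measured corepressors 0 were called in any comparison (medians 0.22, 0.04, 0.10 and -0.02), and the one furthest from 0 was *Hr*, at 0.49 in cKO-CT versus WT-CT.

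The estrogen-related receptors are orphans that act on mitochondrial genes with these coactivators. *Esrra* had 7.05 on cKO-CT, 7.07 on cKO-HFD, 6.96 on WT-HFD and 7.48 on WT-CT, and *Esrrg* had 5.63 on cKO-CT, 5.89 on cKO-HFD, 5.65 on WT-HFD and 6.20 on WT-CT. Both were highest on WT-CT and lower on the other 3 arrays by less than 1.5-fold. Their log2 ratios were -0.43 and -0.57 in cKO-CT versus WT-CT, 0.12 and 0.24 in cKO-HFD versus WT-HFD, -0.53 and -0.55 in WT-HFD versus WT-CT, and 0.02 and 0.26 in cKO-HFD versus cKO-CT. *Esrrg* lay less than 1 log2 unit above the *Olfr* background. In cKO-CT versus WT-CT 5 of the 24 muscle markers were lower with it (*Mybpc1* at -1.67, *Mb* at -1.22, *Myh7* at -1.18, *Myh1* at -1.10 and *Myh2* at -0.68), but the list median was -0.11. Elsewhere most muscle markers ran opposite to *Esrrg*. Of the 24 markers, 24 were lower in cKO-HFD versus WT-HFD, 19 higher in WT-HFD versus WT-CT and 19 lower in cKO-HFD versus cKO-CT. *Mybpc1* (0.51) and *Myh7* (0.53) were above 0 with *Esrrg* in cKO-HFD versus cKO-CT. The median log2 ratios of the 17 measured acinar markers were -1.04 in cKO-CT versus WT-CT and -1.06 in WT-HFD versus WT-CT. These medians were -0.07 in cKO-HFD versus WT-HFD and 0.16 in cKO-HFD versus cKO-CT. The part of muscle and acinar markers in the ratios of *Esrrg* was not tested. Of 12 measured ERR targets, which include *Esrra* itself, 0 were higher and 1 lower in cKO-CT versus WT-CT (2 lower after cyclic loess), 0 and 1 in cKO-HFD versus WT-HFD, 1 and 7 in WT-HFD versus WT-CT and 0 and 3 in cKO-HFD versus cKO-CT (2 lower after cyclic loess; medians -0.36, 0.08, -0.68 and -0.22). *Ndufs1* and *Sdha*, subunits of the respiratory chain, were the lowest in WT-HFD versus WT-CT at -1.11 and -1.05, and *Cs*, citrate synthase, was at -0.85. *Ckmt2*, a creatine kinase of muscle mitochondria, went the other way (1.49) and was above background on WT-HFD only, where the muscle markers were highest.

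The receptors that partner many of the others stayed within 1.5-fold. *Rxra* had 8.48 on cKO-CT, 8.54 on cKO-HFD, 8.58 on WT-HFD and 8.24 on WT-CT, and *Rxrb* had 6.64 on cKO-CT, 6.75 on cKO-HFD, 6.71 on WT-HFD and 6.95 on WT-CT. *Rxra* was lowest and *Rxrb* highest on WT-CT, and the largest ratio of *Rxra* was 0.34, in WT-HFD versus WT-CT. *Rxrg*, which is also used in muscle, had 7.20 on cKO-CT, 7.05 on cKO-HFD, 7.44 on WT-HFD and 7.24 on WT-CT. Its highest and lowest arrays were those of the muscle markers, whose part in its ratio of -0.39 in cKO-HFD versus WT-HFD was not tested.

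Among the receptors of thyroid hormone and retinoic acid, *Rara* came closest to a call. It had 6.75 on cKO-CT, 6.56 on cKO-HFD, 6.57 on WT-HFD and 6.18 on WT-CT, so that WT-CT was the lowest array, and the genotype ratio was 0.57 on CT and -0.01 on HFD. *Rarg* ranged between 6.74 and 6.93 and *Rarb* between 5.66 and 5.93. Of 9 measured retinoic acid targets only *Dhrs3*, a retinaldehyde reductase, was called, at 0.60 in cKO-CT versus WT-CT (0.52 after cyclic loess; medians -0.18, 0.02, -0.02 and -0.02). The retinaldehyde dehydrogenases *Aldh1a1* (0.76) and *Aldh1a3* (0.64), which make retinoic acid, were higher in WT-HFD versus WT-CT, and *Aldh1a3* was lower in cKO-HFD versus WT-HFD (-0.70).

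*Thra* had 9.24 on cKO-CT, 9.03 on cKO-HFD, 9.22 on WT-HFD and 9.05 on WT-CT, and *Thrb* ranged between 6.66 and 6.79. Some of their targets differed widely. Of 9 thyroid hormone targets, 0 were higher and 3 lower in cKO-CT versus WT-CT, 2 and 1 in cKO-HFD versus WT-HFD, 1 and 4 in WT-HFD versus WT-CT and 0 and 4 in cKO-HFD versus cKO-CT (medians -0.28, 0.06, -0.20 and -0.44). The calls fell on *Atp2a1*, *Fasn*, *Me1*, *Thrsp* and *Ucp1*. The other targets, such as *Hr* (0.49 in cKO-CT versus WT-CT), were within 1.5-fold throughout. The lipogenic genes *Thrsp* (-2.32) and *Fasn* (-2.62) were among the lower in WT-HFD versus WT-CT. The gene higher there and lower in cKO-HFD versus WT-HFD was *Atp2a1*, a calcium pump that is also on the muscle marker list.

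The REV-ERBs repress and the RORs activate genes of the circadian clock. *Nr1d1* had 11.19 on cKO-CT, 10.69 on cKO-HFD, 10.77 on WT-HFD and 10.87 on WT-CT, and *Nr1d2* had 8.36 on cKO-CT, 7.96 on cKO-HFD, 8.22 on WT-HFD and 8.39 on WT-CT. Both were lowest on cKO-HFD, at -0.50 and -0.40 in cKO-HFD versus cKO-CT, and *Rora* ranged between 7.91 there and 8.12 on WT-HFD. Of 13 measured clock targets, 0 were called in either genotype comparison, 1 was lower in WT-HFD versus WT-CT and 4 were lower in cKO-HFD versus cKO-CT, with medians of 0.06, -0.14, -0.23 and -0.38. *Bhlhe40*, a repressor of the clock, had 8.15 on cKO-CT, 6.59 on cKO-HFD, 7.13 on WT-HFD and 8.09 on WT-CT, which put both HFD arrays below both CT arrays. The clock output factor *Dbp* was at -0.92 in cKO-HFD versus cKO-CT and at -0.29 in WT-HFD versus WT-CT. Mice were killed after a fast, and the hour of death of each group was not given in the sources used here.

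*Nr3c1*, the glucocorticoid receptor, had 8.01 on cKO-CT, 7.79 on cKO-HFD, 7.84 on WT-HFD and 8.12 on WT-CT, and *Nr3c2*, the mineralocorticoid receptor, ranged between 5.98 and 6.27. *Hsd11b1*, the enzyme that regenerates active glucocorticoid inside cells, differed far more than the receptor it supplies. It had 9.70 on cKO-CT, 8.02 on cKO-HFD, 8.06 on WT-HFD and 10.23 on WT-CT, the same order of arrays as for *Ppara*, with -2.17 in WT-HFD versus WT-CT and -1.68 in cKO-HFD versus cKO-CT. Its ratio was -0.53 in cKO-CT versus WT-CT and -0.62 after cyclic loess, which passed 1.5-fold. Of 14 glucocorticoid targets, 0 were called in either genotype comparison, 4 were higher and 1 lower in WT-HFD versus WT-CT and 0 higher and 2 lower in cKO-HFD versus cKO-CT (medians 0.22, -0.20, 0.32 and -0.15). The higher ones in WT-HFD were *Tsc22d3* (0.76), *Angptl4* (0.68), *Fkbp5* (0.66) and *Zbtb16* (0.59, and 0.55 after cyclic loess), and the lower was *Pdk4*.

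*Esr1*, the main estrogen receptor of adipose tissue, had 8.11 on cKO-CT, 7.62 on cKO-HFD, 7.93 on WT-HFD and 8.20 on WT-CT. It was lowest on cKO-HFD, at -0.49 in cKO-HFD versus cKO-CT and -0.31 in cKO-HFD versus WT-HFD. *Hsd17b12*, an enzyme of fatty acid elongation from the family that interconverts estrogens, was lower in cKO-CT versus WT-CT (-0.60) and in WT-HFD versus WT-CT (-1.53). Over the 23 measured enzymes that make or break down ligands, 1 was higher and 1 lower in cKO-CT versus WT-CT, 0 and 3 in cKO-HFD versus WT-HFD, 2 and 2 in WT-HFD versus WT-CT and 0 and 3 in cKO-HFD versus cKO-CT (medians -0.04, 0.02, -0.06 and 0.02). *Cyp27a1*, which makes oxysterol ligands of LXR, was lower in cKO-HFD versus WT-HFD (-0.72) and in cKO-HFD versus cKO-CT (-0.69), and so was *Akr1c18* (-0.64 and -0.97), which inactivates progesterone.

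*Nr1h3*, the oxysterol receptor LXRα of adipocytes and macrophages, had 8.68 on cKO-CT, 8.59 on cKO-HFD, 8.39 on WT-HFD and 8.43 on WT-CT. Both cKO arrays were above both WT arrays, by less than 1.5-fold (0.25 on CT and 0.20 on HFD). Of 12 LXR targets, a list that holds *Nr1h3*, 2 were higher in cKO-CT versus WT-CT (*Pltp* at 1.02 and *Abcg1* at 0.59, the second at 0.50 after cyclic loess), and 0 were called in cKO-HFD versus WT-HFD (medians 0.19, 0.03, 0.10 and -0.07). *Pltp*, a phospholipid transfer protein, had 10.98 on cKO-CT, 11.74 on cKO-HFD, 11.26 on WT-HFD and 9.96 on WT-CT. It was also higher under HFD in WT mice (1.30) and cKO mice (0.76), while *Srebf1*, the activator of lipogenesis, was lower in both (-0.59 and -0.67). Of 18 macrophage markers, 7 were higher in cKO-CT versus WT-CT (3 after cyclic loess), 5 lower in cKO-HFD versus WT-HFD, 12 higher in WT-HFD versus WT-CT and 0 called in cKO-HFD versus cKO-CT. Their median level was 8.14 on cKO-CT, 8.03 on cKO-HFD, 8.37 on WT-HFD and 7.56 on WT-CT, their sum on the linear scale was 6482 on cKO-CT, 5755 on cKO-HFD, 7940 on WT-HFD and 4484 on WT-CT, and at least 17 of the 18 were above background on each. Their part in the ratios of *Pltp* and *Abcg1* was not tested.

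*Nr2f2*, the orphan receptor COUP-TFII of veins and of preadipocytes, had 7.35 on cKO-CT, 7.34 on cKO-HFD, 7.01 on WT-HFD and 6.94 on WT-CT. Both cKO arrays were thus above both WT arrays, by 0.42 on CT and 0.33 on HFD, under 1.5-fold. All 10 endothelial markers were above background on every array and their median level ran the same way, with 8.50 on cKO-CT, 8.58 on cKO-HFD, 8.15 on WT-HFD and 8.04 on WT-CT (sums on the linear scale 4489, 5338, 3933 and 3284, 0 called, medians of the ratios 0.36 on CT and 0.41 on HFD), and their part was not tested. *Nr2f6*, a repressor of the same family, had 5.72 on cKO-CT, 6.09 on cKO-HFD, 5.63 on WT-HFD and 6.10 on WT-CT, within 1 log2 unit of the background.

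Of the other orphan receptors above background, the testicular receptors *Nr2c1* and *Nr2c2* ranged between 6.37 and 6.56 and between 7.50 and 7.81. *Nr6a1*, the germ cell nuclear factor, ranged between 6.21 and 6.38, and *Nr4a2*, known from dopamine neurons, between 6.62 and 6.87. *Nr4a1*, an immediate early gene of stress and adrenergic signals, had 6.90 on cKO-CT, 6.75 on cKO-HFD, 7.14 on WT-HFD and 6.69 on WT-CT. It was highest on WT-HFD, by 0.46 versus WT-CT, and was at -0.39 in cKO-HFD versus WT-HFD. *Hnf4a*, a receptor of liver and gut, was near the background with 5.50 on cKO-CT, 5.81 on cKO-HFD, 5.52 on WT-HFD and 5.59 on WT-CT. *Nr5a2*, a receptor of liver and of pancreatic acinar cells, had 5.33 on cKO-CT, 5.58 on cKO-HFD, 4.94 on WT-HFD and 5.27 on WT-CT, above background on both cKO arrays only. Its ratio of 0.64 in cKO-HFD versus WT-HFD thus set a level just above background against a level below it. *Nr5a1*, the steroidogenic factor of adrenal and gonad, had 5.28 on cKO-CT, 5.55 on cKO-HFD, 5.33 on WT-HFD and 5.53 on WT-CT, just above background on cKO-HFD and WT-CT and just below it on the others.

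The 2 genotype comparisons, which share no array, ordered the receptors differently, as they did the genes above background at large. Over the 28 above background, the log2 ratios on CT and on HFD correlated across genes with r = -0.06, and 11 had the same sign. The genes share the 4 arrays and are no replicates. Over the 10895 genes r was 0.03, and 5402 of them had the same sign. The 2 diet comparisons correlated with r = 0.51 over the 28 and r = -0.19 over the 27 without *Ppara*, beside r = 0.20 over the 10895 genes. The genotype ratio on HFD minus that on CT passed 1.5-fold for 4 of the 28, namely *Nr2f6* (0.85), *Esrrg* (0.81), *Ppara* (0.67) and *Nr4a1* (-0.61), where 9.57% of the genes above background passed. *Rara* (-0.58) and *Esrra* (0.55) were just below. After cyclic loess the count was again 4, with *Esrra* (0.61) in and *Nr4a1* (-0.56) out. With 1 array per group this difference was not tested.

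**Figure D4:**
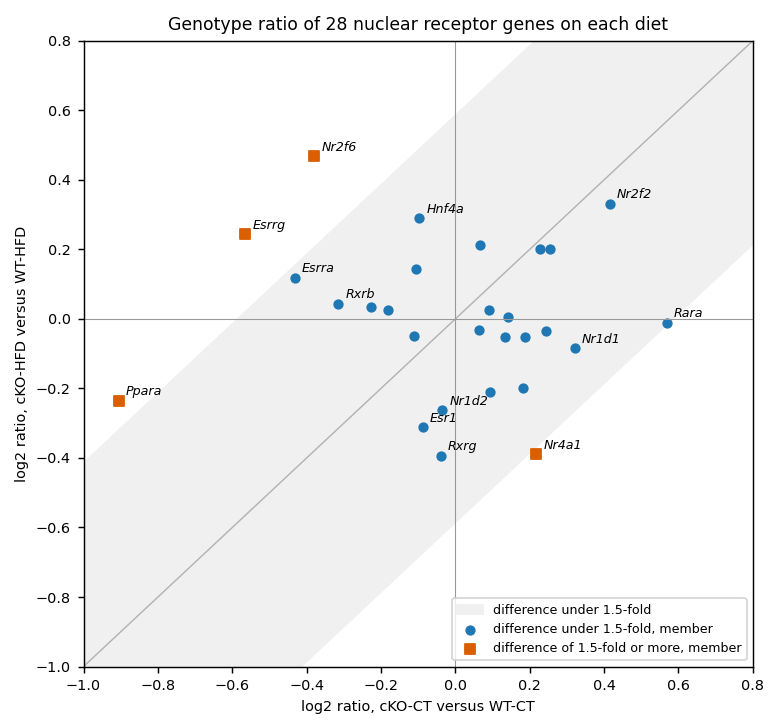
Log2 ratio of the 28 receptors above background in cKO-HFD versus WT-HFD (vertical axis) against cKO-CT versus WT-CT (horizontal axis), with the diagonal of equal ratios and the band of differences under 1.5-fold in grey. *Nr2f6*, *Esrrg* and *Ppara* lie above the band and *Nr4a1* at its lower edge.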

How the data were processed

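SAT RNA of the 4 groups was measured on MoGene 1.0 ST arrays. The authors deposited 1 log2 level for each probe set, made by RMA, which corrects background, applies quantile normalization across arrays and summarises probes. The processing notes name Affymetrix Expression Console, and the study's methods name RMA-Sketch of the APT suite. Quantile normalization gives all arrays 1 distribution, so ratios are relative to the other genes, and RMA compresses the ratios of dim genes. The number of arrays limits the precision.

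Of 35556 probe sets, 21789 carried 1 gene name in the platform annotation, which can be old, 1621 several and 12146 none. Probe sets naming 1 gene alone were averaged to its level, and each measured receptor had 1 probe set. Ratios were differences of log2 levels between arrays, called at 1.5-fold with no detection filter. With 1 array per group no test was run. The members, the 18 lists (coactivators, corepressors, ligand enzymes, targets of PPAR, LXR, glucocorticoid, thyroid hormone, REV-ERB and ROR, ERR and retinoic acid receptors, and markers of skeletal muscle, pancreatic acinar cells, macrophages, white and brown or beige adipocytes, endothelium, liver, and mammary and skin epithelium) and the alternatives were chosen with earlier results of these data known. Genes named are the members, *Napepld*, up to 4 genes of a list with the largest ratios in a comparison and genes that make up a count of up to 5. *Adipoq*, *Cd36*, *Dio2*, *Fabp4*, *Lpl*, *Plin1* and *Plin5* were named outside this, after their values were seen. Only the 1.5-fold call was tested on simulated data, with the same noise at every level.

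Alternatives were cyclic loess (span 0.7, 3 iterations), median centring, the probe set with the highest mean, genes above the *Olfr* 95th percentile on at least 1 array, genes whose mean log2 level was 7 or more, a 2-fold size and, for background, the *Olfr* 99th percentile. Those for the difference between diets were added after seeing the data. Promoters came from RefSeq (GRCm38.p6) and were matched by symbol. The software was limma 3.58.1 in R 4.3.3, and matplotlib 3.10.9, pandas 2.3.3 and numpy 2.4.6 in Python 3.11.15.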

Additional observations from a re-analysis of the deposited data

Results flagged for a closer look

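For 3 of the 28 receptors above background on all arrays the genotype ratio ran in opposite directions on the diets and differed by at least 1.5-fold between them. The log2 ratio on HFD minus that on CT was 0.85 for *Nr2f6* (0.47 on HFD and -0.38 on CT), 0.81 for *Esrrg* (0.24 on HFD and -0.57 on CT) and -0.61 for *Nr4a1* (-0.39 on HFD and 0.22 on CT). None of the 6 ratios passed 1.5-fold by itself, and the difference was not tested. Of genes above background, 9.57% differed by this size in either direction, and 8.25% did so with ratios of opposite sign. The 3 of 28 receptors are near that last share. Both *Nr2f6* and *Esrrg* lay within 1 log2 unit of the *Olfr* background on every array. After cyclic loess the differences were 0.79 for *Nr2f6*, 0.75 for *Esrrg* and -0.56 for *Nr4a1*, the last under 1.5-fold, and *Esrra* passed with 0.61 (0.55 before).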

How the results depend on the processing

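Under cyclic loess all 176 ratios of single receptors moved by less than the spread of the ratios at their level. No called ratio changed sign, while 14 uncalled ones near 0 did. Median centring moves all ratios of a comparison by 1 small constant, and 2 uncalled ones changed sign under it. The probe set with the highest mean could move no ratio, because each measured receptor had 1 probe set. These 2 alternatives are therefore no check of single ratios. Counts of calls, small throughout, depended on the low receptors. With genes above the *Olfr* 95th percentile on at least 1 array (30 receptors), 1 was lower in cKO-CT versus WT-CT, 1 higher in cKO-HFD versus WT-HFD, 1 lower in WT-HFD versus WT-CT and 0 higher in cKO-HFD versus cKO-CT, and the medians were 0.0611 in cKO-CT versus WT-CT (-0.04 over all 44) and -0.0833 in cKO-HFD versus cKO-CT (0.00 over all 44). Over those with a mean log2 level of 7 or more (15 receptors), these counts were 1, 0, 1 and 0, and the medians 0.0933 in cKO-CT versus WT-CT, -0.0505 in cKO-HFD versus WT-HFD (0.01 over all 44) and -0.17 in cKO-HFD versus cKO-CT. At 2-fold they were 0, 0, 1 and 0, the 1 being *Ppara* (also lower in cKO-HFD versus cKO-CT, -1.28), and 0 receptors differed between diets. Median centring added *Rara* as the 1 receptor higher in cKO-CT versus WT-CT. With the *Olfr* 99th percentile, 24 receptors were above background on cKO-CT, 23 on cKO-HFD, 23 on WT-HFD and 26 on WT-CT. The removal of low receptors follows from the filters' construction. No paired analysis was possible because each group has 1 array and the labels give no replicate numbers. The levels of the 14 receptors below background, and the spread between mice, cannot be read from these arrays.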

Other observations

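Of the lists not described above, 9 measured liver markers held 1 gene higher (*Apoa1*, 1.12) and 2 lower (*Alb*, -0.81, and *Apoa2*, -0.65) in cKO-HFD versus WT-HFD, *Alb* lower in WT-HFD versus WT-CT (-1.64), and *Apoa1* higher (0.90) and *Alb* lower (-2.03) in cKO-HFD versus cKO-CT. Of 10 mammary and skin epithelial markers, *Krt10* was higher in cKO-HFD versus cKO-CT (0.68) and 0 were called in the other comparisons. Among 10 measured white adipocyte markers *Lep*, the leptin gene, was higher in cKO-CT versus WT-CT (1.02), WT-HFD versus WT-CT (1.35) and cKO-HFD versus cKO-CT (0.80). *Gpd1* was lower in cKO-CT versus WT-CT (-0.66) and WT-HFD versus WT-CT (-1.26), and *Slc2a4*, the insulin-regulated glucose transporter, in WT-HFD versus WT-CT (-0.69) and cKO-HFD versus cKO-CT (-0.65). Acinar markers had 12 of 17 lower in both comparisons with WT-CT and 0 called in the others, and muscle markers 5 of 24 lower in cKO-CT versus WT-CT, 24 lower in cKO-HFD versus WT-HFD, 19 higher in WT-HFD versus WT-CT and 19 lower in cKO-HFD versus cKO-CT.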
